A study of Mus musculus with 4 samples.

Results

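The insulin-like growth factor (IGF) system was followed through 4 RNA-seq libraries of mouse mammary tumour cells. It was taken as 10 genes: the ligands Igf1 and Igf2, the receptors Igf1r and Igf2r, and the binding proteins Igfbp2 to Igfbp7. They were chosen by symbol among the 23361 genes of the deposited table, and all 10 were present. The choice was made with expression values of these same libraries known, so the members' values are given as a description, with no test of their own.

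All 4 libraries came from cells of the line 23116 MT, derived from a mammary tumour of the Chaos3 mouse (strain C3HeB/FeJ), a model with a mutant allele of the replication helicase subunit Mcm4. The Low group is the untreated line, labelled low in Arid1a, a subunit of the BAF chromatin remodelling complex, and has 2 libraries (UT-R1 and UT-R2). The High group, labelled high in Arid1a, has 1 library from each of 2 add-back clones, AB-C1 and AB-C2, which were transduced with a lentivirus to overexpress Arid1a. The promoter of the vector is not given in the sources used here, and no library of a clone carrying an empty vector was used, so cloning, transduction and Arid1a cannot be told apart. The table numbers the libraries within a group without naming the clone. They are called Low 1, Low 2, High 1 and High 2 here, and the numbers are names only.

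The libraries held 13889858 and 28110812 fragments under the Low label and 16523077 and 24307251 under the High label. Levels are given as CPM (depth-scaled fragment counts) for 1 gene across libraries, and as the authors' FPKM, which is also per transcript length, between genes. Under the Low label, Arid1a itself was at 82.2 and 94.2 CPM, and under the High label it was at 49.8 and 58.3 CPM, with a log2 fold change of -0.71 ± 0.23 (SE) and an adjusted p of 0.165 in edgeR's quasi-likelihood test. The counted Arid1a therefore goes against the High label, and every direction is given for the libraries as labelled. The coefficient of variation between libraries was 17.3% in the Low pair and 42.8% in the High pair. The labels do not say that the Low duplicates were separate cultures, and p-values therefore reflect only how far these libraries varied, a spread that may be technical.

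In the IGF system, the ligands Igf1 and Igf2 bind the tyrosine kinase receptor Igf1r, which signals through insulin receptor substrates to PI3 kinase, Akt and other kinases. Igf2r, the cation-independent mannose 6-phosphate receptor, carries Igf2 to lysosomes for degradation. Secreted binding proteins hold the ligands, keep them from the receptor or deliver them, and are cut by proteases, while Igfbp7 binds IGFs only weakly. In the mammary gland, IGF1 from the stroma and liver supports duct growth, and Igfbp5 is known for its rise when the gland involutes after lactation.

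Across these genes, the libraries labelled High differed widely from each other. The library labelled High 1 had both ligands, Igf1r and Igfbp2, Igfbp3, Igfbp4 and Igfbp5 above both Low libraries. In the library labelled High 2, Igf1 was close to the Low level, Igf2, Igfbp5, Igfbp7 and Igf2r were below both Low libraries, and Igfbp3 was at its highest. In each library labelled High, Igfbp3 and Igfbp4 were more than 2-fold above the pooled Low libraries, and both receptors were within 2-fold of them. The plot of CPM by library shows all 10 members.

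**Figure D1:**
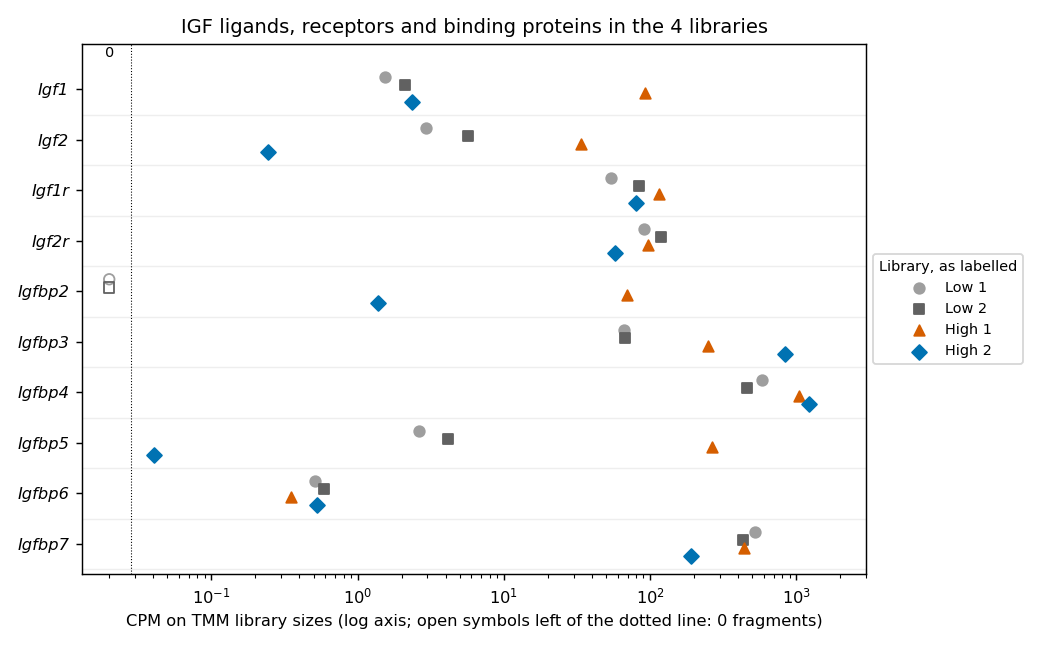
CPM of the 10 members (log axis) in the 4 libraries, named as labelled; each point is 1 library, and an open symbol at the left edge marks a library with no fragments. Igfbp5 spans from 0.0407 CPM (High 2) to 266 CPM (High 1), while the 4 points of Igf1r lie between 54.3 and 115 CPM.

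Igf1, the ligand that mediates much of the growth-promoting effect of growth hormone, had 21 and 57 fragments in the libraries labelled Low, 1583 in High 1 and 58 in High 2. These correspond to 1.54, 2.09, 92.5 and 2.36 CPM. High 1 was 48.5-fold above the pooled Low libraries (95% interval of the fragment ratio 38.7 to 61.7). High 2 was 1.24-fold above them (0.867 to 1.76), an interval that includes no difference, although its CPM lay above both Low values. These and all following fragment-ratio intervals cover counting error only. On the authors' FPKM, Igf1 was at 0.329 and 0.301 in the Low libraries, 14.8 in High 1 and 0.339 in High 2, so that a single library carried nearly all of the Igf1 RNA. The group means, 1.81 ± 0.384 CPM (SD, n = 2) for Low and 47.4 ± 63.7 CPM (SD, n = 2) for High, differ by less than the spread within the High group. In the GENCODE M21 annotation of mm10, the antisense gene Igf1os overlaps Igf1. The strand setting of the counting is not given, so fragments of Igf1os cannot be told apart from those of Igf1.

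Igf2, the fetal growth factor expressed from the paternal allele, had 40 and 156 fragments in the Low libraries, 575 in High 1 and 6 in High 2. In CPM these were 2.94, 5.71, 33.6 and 0.244. High 1 lay above both Low libraries and High 2 below both, so the libraries labelled High stood on opposite sides of the Low pair. High 1 was 7.02-fold above the pooled Low libraries (5.96 to 8.29), and High 2 was 19.6-fold below them (8.84 to 54.1). Between the libraries labelled High the ratio was 138 (62.8 to 376). The Low libraries themselves differed 1.94-fold (1.36 to 2.82), beyond counting error. The mean of the High pair, 16.9 ± 23.6 CPM (SD, n = 2) against 4.32 ± 1.96 CPM in the Low pair, describes neither clone. In the GENCODE M21 annotation of mm10, Igf2 (ENSMUSG00000048583.16, chromosome 7, 142650766 to 142666816, minus strand) shares its span with Gm49394 on the same strand, with the antisense gene Igf2os and with the microRNA gene Mir483. The kit was directional, but the strand setting of the counting is not given, so fragments of these genes cannot be told apart from Igf2. The separate row for the antisense gene Igf2as held 4, 0, 1 and 0 fragments.

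Set per length, the summed FPKM of the ligands was 1.15 and 1.93 in the Low libraries, 24.3 in High 1 and 0.409 in High 2. Igf2 was the larger part in the Low libraries, where Igf1 made up 28.8% and 15.6% of the sum. Igf1 was the larger part under the High label, at 60.9% in High 1 and 83.1% in High 2. In High 2 that share was of a small total, because Igf2 was listed at 0.0691 FPKM.

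Igf1r, the signalling receptor for both ligands, had 739 and 2294 fragments in the Low libraries and 1969 and 1967 in those labelled High. The levels were 54.3 and 83.9 CPM under the Low label and 115 CPM in High 1 and 80.1 CPM in High 2. The groups overlapped, since High 2 fell between the Low libraries. The Low libraries differed 1.55-fold from each other (1.42 to 1.68), as much as High 1 differed from their pooled value (1.55-fold, 1.47 to 1.64). Igf1r lies on chromosome 7 at 67952827 to 68233668 (plus strand).

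Igf2r, which clears Igf2 and sorts lysosomal enzymes, was at 90.8 and 119 CPM in the Low pair, 96.3 CPM in High 1 and 57.9 CPM in High 2. High 1 lay between the Low libraries, and High 2 was 1.89-fold below their pooled level (1.78 to 2.01). Igf2r (chromosome 17, 12682406 to 12769664, minus strand) is overlapped by the antisense transcript Airn, whose own row held 19, 23, 3 and 9 fragments, few beside the 1236 to 3251 fragments of Igf2r. By FPKM, Igf1r made up 30.7% and 34.3% of the summed receptors in the Low libraries, 46.9% in High 1 and 50.6% in High 2, so the receptors were near parity under the High label. The sum itself was 14.9 and 20.6 FPKM in the Low libraries, 20.5 in High 1 and 13.3 in High 2.

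Among the binding proteins, Igfbp2 and Igfbp5 showed the widest differences and Igfbp3 and Igfbp4 were higher in both libraries labelled High. The stretches upstream of these 4 genes are printed as a description, and their likeness to each other was not measured. They come from RefSeq (GRCm38.p6, the mm10 assembly), in which all 10 members had a promoter entry, and run 5′ to 3′ on the gene's own strand up to the annotated start, with exon bases left out. Igfbp2 is at chr1:72824230-72824479 (plus strand), Igfbp5 at chr1:72874885-72875115 (minus strand, ending 19 bases before the start), Igfbp3 at chr11:7213924-7214173 (minus strand) and Igfbp4 at chr11:99040994-99041243 (plus strand). Capitals mark matches, on either strand, to the TATA box (TATAAA), the GC box (GGGCGG), the AP-1 motif (TGANTCA) and the E-box (CACGTG).
Igfbp2: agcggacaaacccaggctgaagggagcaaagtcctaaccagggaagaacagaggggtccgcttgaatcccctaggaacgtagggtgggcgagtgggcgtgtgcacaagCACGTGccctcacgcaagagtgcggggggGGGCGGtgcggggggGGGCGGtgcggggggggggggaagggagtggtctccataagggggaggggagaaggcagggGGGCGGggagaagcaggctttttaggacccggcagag
Igfbp5: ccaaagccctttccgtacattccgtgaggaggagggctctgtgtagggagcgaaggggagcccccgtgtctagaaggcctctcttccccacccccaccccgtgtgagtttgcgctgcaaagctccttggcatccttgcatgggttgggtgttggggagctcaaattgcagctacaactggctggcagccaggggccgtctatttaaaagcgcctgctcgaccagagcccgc
Igfbp3: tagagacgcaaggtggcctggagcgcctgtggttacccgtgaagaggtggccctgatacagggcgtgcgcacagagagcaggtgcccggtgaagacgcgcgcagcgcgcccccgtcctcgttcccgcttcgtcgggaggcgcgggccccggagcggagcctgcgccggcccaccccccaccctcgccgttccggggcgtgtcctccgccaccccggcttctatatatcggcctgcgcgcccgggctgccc
Igfbp4: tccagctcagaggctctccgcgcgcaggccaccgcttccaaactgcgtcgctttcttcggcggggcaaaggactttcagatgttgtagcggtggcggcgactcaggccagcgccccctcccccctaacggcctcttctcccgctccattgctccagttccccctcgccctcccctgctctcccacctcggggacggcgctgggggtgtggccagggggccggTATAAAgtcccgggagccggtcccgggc
Igfbp2 had 3 GC boxes and 1 E-box in its 250 bases, and Igfbp4 had 1 TATA box just before its start. The Igfbp3 and Igfbp5 stretches held none of the 4 motifs in these letters, and no 2 motifs overlapped. In the 250 upstream bases of all 32851 promoters, 32.7% held the GC box, 12.4% the TATA box, 6.75% the AP-1 motif and 6.02% the E-box. CpG dinucleotides, the usual sites of DNA methylation, numbered 32 in Igfbp3, 22 in Igfbp4, 14 in Igfbp2 and 10 in Igfbp5 (231 bases), against a median of 6 over all promoters (quartiles 2 and 16). A match is a description of the letters and no evidence of binding.

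Igfbp2, a binding protein with preference for Igf2, had 0 fragments in either library labelled Low, 1197 in High 1 and 34 in High 2. The levels in the libraries labelled High were 69.9 and 1.38 CPM. A count of 0 allows up to 3 fragments over the Low group, or 0.0733 CPM. Against that limit, High 1 was at least 954-fold higher and High 2 at least 18.9-fold higher. Both libraries labelled High thus lay above both Low libraries, but they differed from each other 50.5-fold (35.9 to 73.3). By FPKM, Igfbp2 ranked 1458 of the 23361 genes in High 1 and 10996 in High 2.

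Igfbp5, which binds to the extracellular matrix and is a marker of involution in the gland, had 36 and 113 fragments in the Low libraries, 4550 in High 1 and 1 in High 2. That is 2.64 and 4.13 CPM under the Low label, 266 CPM in High 1 and 0.0407 CPM in High 2. High 1 was above both Low libraries and High 2 below both, as for Igf2. High 1 stood 73.0-fold above the pooled Low libraries (62.0 to 86.6). High 2 stood 89.4-fold below them, with a wide interval of 15.8 to 3554 because it rests on 1 fragment. The ratio of High 1 to High 2 was 6529 (1171 to 257925), the largest of any member in these libraries.

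Igfbp2 and Igfbp5 are neighbours on chromosome 1, at 72824503 to 72852474 (plus strand) and 72857932 to 72874884 (minus strand), with their 3′ ends 5 kb apart. In High 1 both were far above the Low libraries. In High 2 they parted, Igfbp2 above the Low libraries and Igfbp5 below them.

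Igfbp3, the main carrier of IGFs in blood and also a growth inhibitor with actions of its own, had 901 and 1846 fragments in the Low libraries, 4271 in High 1 and 20462 in High 2. The Low libraries were close together at 66.2 and 67.5 CPM, below 249 CPM in High 1 and 833 CPM in High 2. Relative to the pooled Low libraries, High 1 was 3.72-fold higher (3.54 to 3.9) and High 2 was 12.4-fold higher (11.9 to 12.9). High 2 was 3.34-fold above High 1 (3.23 to 3.45), whereas 7 of the other 9 members were lower in High 2 than in High 1. The group means were 66.9 ± 0.954 CPM (SD, n = 2) for Low and 541 ± 413 CPM (SD, n = 2) for High. By FPKM its rank among all genes went from 3332 and 3231 in the Low libraries to 736 in High 1 and 217 in High 2.

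Igfbp4, an inhibitory binding protein that the protease Pappa cleaves, was the member on which the libraries labelled High differed least among those above the Low pair. It had 584 and 456 CPM in the Low pair, 1037 CPM in High 1 and 1223 CPM in High 2. High 1 was 2.08-fold (2.04 to 2.12) and High 2 2.45-fold (2.41 to 2.5) above the pooled Low libraries, and the clones differed 1.18-fold (1.16 to 1.2). The group means were 519.9 ± 90.9 CPM for Low and 1129.5 ± 131 CPM for High (SD, n = 2 each), a difference larger than either spread. The log2 fold change between the groups was 1.12 ± 0.24 (SE). Igfbp3 (7206086 to 7213923, minus strand) and Igfbp4 (99041244 to 99054392, plus strand) both lie on chromosome 11, far apart.

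Igfbp7, a secreted matrix protein with weak IGF binding, was the most abundant member in the libraries labelled Low, at 558 and 469 FPKM. It was at 517 and 434 CPM there, 435 CPM in High 1 and 189.9 CPM in High 2. High 1 fell within the Low range, and High 2 was 2.43-fold below the pooled Low libraries (2.35 to 2.51). On FPKM High 1, at 466, lay just below both Low libraries, 1 of 2 members whose order of libraries depended on the scale (Igf1 was the other). Igfbp7 (chromosome 5, 77349240 to 77408041, minus strand) overlaps the antisense gene Gm34648, whose fragments cannot be told apart from its own without the strand setting. Only the last bases of Igfbp7 overlap Polr2b, which ends at 77349324 on the plus strand and has its own row of 2654, 7455, 3683 and 5155 fragments.

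Igfbp6, an inhibitor with high preference for Igf2, was scarce in all 4 libraries, with 7, 16, 6 and 13 fragments and 0.35 to 0.585 CPM. The pooled Low level was 1.6-fold above High 1 (0.634 to 4.81) and 1.06-fold above High 2 (0.516 to 2.28), so no difference was detectable at this depth.

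Per length, the 6 binding proteins summed to 899.8 and 743 FPKM in the Low libraries and to 1232 and 1220 FPKM in High 1 and High 2. The sums of the libraries labelled High were nearly equal, but their makeup was not. Igfbp7 made up 62% and 63.1% of the sum in the Low libraries, 37.9% in High 1 and 16.7% in High 2. Igfbp4 made up 34.6% and 32.7% in the Low libraries, 44.5% in High 1 and 53.1% in High 2, and was the most abundant member in both libraries labelled High. The share of Igfbp3 was 3.26% and 4.03% in the Low libraries, 8.91% in High 1 and 30.1% in High 2. Igfbp2 and Igfbp5, despite their large ratios, were minor parts of the sum, at 4.97% and 3.76% in High 1.

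**Figure D2:**
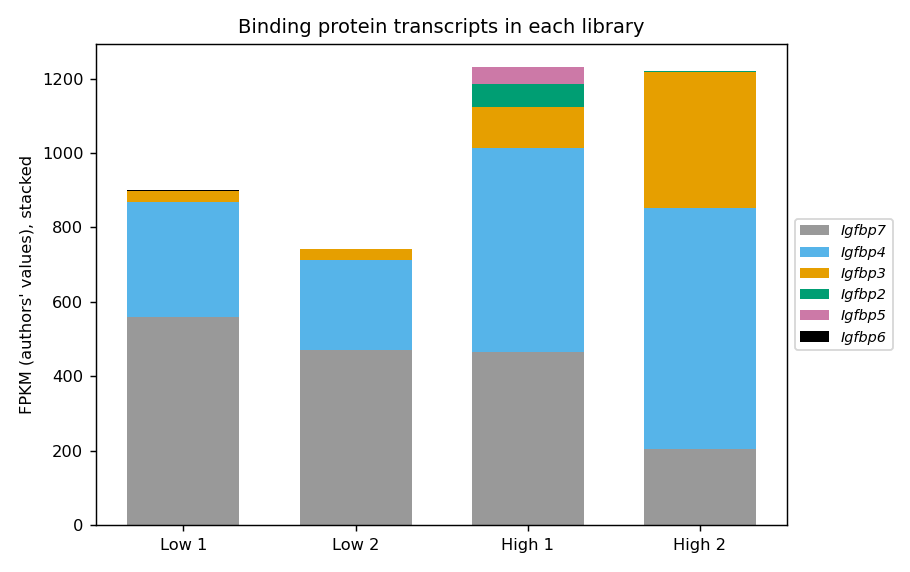
Stacked bars of the authors' FPKM of the 6 binding proteins in each library, as labelled, on an axis from 0; the colours stand for the genes. The bars of High 1 and High 2 reach 1232 and 1220 FPKM, and Igfbp7 shrinks from 62% and 63.1% of the Low bars to 16.7% of the High 2 bar.

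The order of members by FPKM changed with the library. In the Low libraries it ran from Igfbp7 and Igfbp4 through Igfbp3, Igf2r, Igf1r and Igf2 to Igfbp5, Igfbp6 and Igf1, with Igfbp2 listed at 0. The ranges of Igfbp5 (0.465 and 0.727 FPKM) and Igfbp6 (0.47 and 0.535 FPKM) overlapped there, while the ranges of the other neighbours in that order did not. In High 1, Igfbp2 (61.2 FPKM), Igfbp5 (46.3 FPKM) and Igf1 (14.8 FPKM) stood above both receptors. In High 2 they stood below the receptors again, at 1.21, 0.00711 and 0.339 FPKM.

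**Figure D3:**
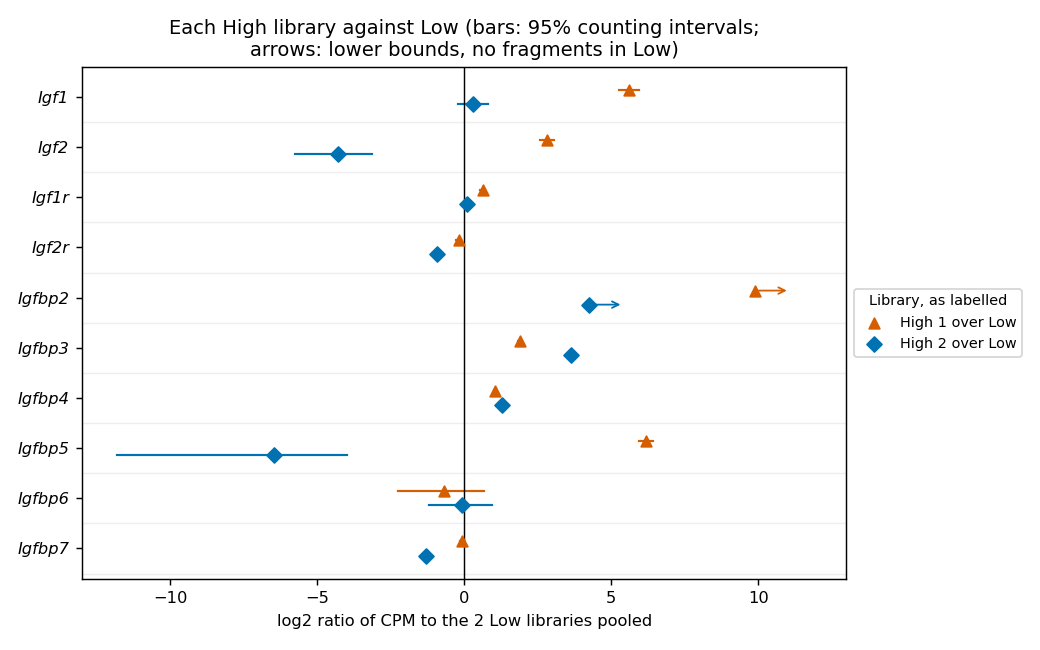
Log2 ratio of depth-scaled fragments in High 1 and High 2 to the pooled Low libraries for each member, with 95% intervals that cover counting error only. The arrows for Igfbp2 start at the ratio to 3 Low fragments, because the Low libraries held 0 fragments. They leave out the counting error of the libraries labelled High and are not 95% bounds. Igf2 and Igfbp5 lie on opposite sides of 0 in the libraries labelled High, and Igfbp3 is higher in High 2 (12.4-fold) than in High 1 (3.72-fold).

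Because the members were chosen with these contrasts known, their counts of calls are given as a description. In High against Low, edgeR's quasi-likelihood test at an adjusted p of 0.05 called 0 of the 10 members, and 2 (Igfbp3 and Igfbp4) had an unadjusted p under 0.05. Limma-voom also called 0 and DESeq2 called 3 (Igfbp2, Igfbp3 and Igfbp4). Of all 12987 genes tested, edgeR and limma-voom each called 2.47% and DESeq2 8.75%. With no filter on low counts edgeR called 1 member (Igfbp4), beside 4.88% of all genes. With a block on the library numbers, which only name the libraries, it called 2 (Igfbp2 and Igfbp3), beside 3.61%, and with the numbers crossed 1 (Igfbp2), beside 0.724%. The members' median log2 fold change was 1.53, and that of all genes tested was 0.03. In CPM, 4 members (Igf1, Igfbp2, Igfbp3 and Igfbp4) had both libraries labelled High above both Low libraries, as had 25.9% of all genes, and 0 had both below, as had 25.1%. The libraries labelled High were on opposite sides of the Low pair for Igf2 and Igfbp5, as for 16.8% of all genes.

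A fit with each library labelled High apart rests on the spread of the Low pair and assumes that a lone library varies likewise. In it, 6 members were called higher in High 1 than in Low (Igf1, Igf2, Igfbp2, Igfbp3, Igfbp4 and Igfbp5) and 0 lower, where 10.5% of the 13674 genes tested were called higher and 7.68% lower. In High 2, 3 were called higher (Igfbp2, Igfbp3 and Igfbp4; 8.64% of all genes) and 4 lower (Igf2, Igf2r, Igfbp5 and Igfbp7; 7.55% of all genes). These comparisons share the Low libraries. The median log2 fold change of the members was 1.44 in High 1 and 0.07 in High 2. Between the libraries labelled High, Igfbp3 was called higher in High 2 (4.3% of all genes) and 5 members lower (Igf1, Igf2, Igfbp2, Igfbp5 and Igfbp7; 6.48% of all genes). All 10 members passed the filter on low counts, Igfbp2 only through the libraries labelled High.

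Among all genes tested, the 3 with profiles over the 4 libraries nearest to that of Igfbp5 were Tnn (distance 2.41), Pknox2 (2.75) and Col23a1 (2.93). The measure is the distance between log2 CPM profiles centred on their own mean, over 4 libraries, beside a range of 10.92 for Igfbp5 itself. Tnn, which encodes the matrix protein tenascin N, was at 0.808 and 0.732 CPM in the Low pair, 27 CPM in High 1 and 0.0407 CPM in High 2. The High 2 value of Tnn rests on 1 fragment, as does that of Igfbp5. Nearest to Igfbp2 (range 9.5) were the homeobox gene Pitx1 (1.92), Angptl7 (2) and Serpinb10 (2.23). Pitx1 was at 0.0735 and 0.11 CPM in the Low pair, 34.9 CPM in High 1 and 0.692 CPM in High 2. Its Low values rest on 1 and 3 fragments, and Igfbp2 had 0 fragments in both Low libraries. With 4 libraries, such likeness is a description only.

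The other genes of the pathway were counted from 7 lists, 97 genes in all, of which 83 were tested. In High against Low, 2 of them rose and 3 fell by edgeR (6.02%, beside 2.47% of all genes). In High 1 against Low, 12 rose and 10 fell (26.5%, beside 18.2%), and in High 2 against Low, 7 rose and 12 fell (22.9%, beside 16.2%). Adjusted p-values in what follows are from edgeR over all genes tested. Where only 1 library labelled High is compared, they assume that it varies like the Low pair. Genes other than those called between the groups and the most abundant of each list were named after their values were seen.

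The surface partners of binding proteins held the 3 falls. These are integrins and receptors that bind IGFBPs or IGFs at the cell surface. Itga5, the fibronectin receptor subunit that pairs with Itgb1, fell from 314 and 259.6 CPM in the Low pair to 65.2 and 54.3 CPM in those labelled High (log2 fold change -2.26 ± 0.24 SE, adjusted p = 0.00622). Itgb3, the partner of Itgav in an integrin that takes part in IGF1 signalling, fell from 41.9 and 42.6 CPM to 1.05 and 3.99 CPM (-4.04 ± 0.63, adjusted p = 0.0424). Lrp1, an endocytic receptor that binds Igfbp3, fell from 368 and 495 CPM to 137 and 69.9 CPM (-2.06 ± 0.37, adjusted p = 0.0443). In each of the 3 genes both libraries labelled High were below both Low libraries. The other 5 of the 8 genes did not pass, and the median of the list was -0.79. In High 1 against Low the same 3 fell, and in High 2 Itgav fell as well (-0.92 ± 0.31, adjusted p = 0.0209).

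Of the 8 tested proteases and protease inhibitors of the list, 0 were called between the groups by edgeR (5 at an unadjusted p under 0.05), 4 by DESeq2 (Stc1, Stc2, Htra1 and Ctsd) and 1 by limma-voom (Htra1). In High 1 against Low 4 rose and 2 fell, and in High 2 against Low 2 rose and 2 fell. Htra1, a serine protease that cleaves Igfbp5, was at 253 and 218 CPM in the Low pair and 516 and 491 CPM in those labelled High, just short of the threshold (log2 fold change 1.1 ± 0.22 SE, adjusted p = 0.0506). In the fit of single libraries it was called in High 1 (1.13, adjusted p = 0.000699) and in High 2 (1.06, adjusted p = 0.00168). Stc2, a stanniocalcin that inhibits Pappa, was at 1.62 and 1.17 CPM in Low and 8.41 and 6.8 CPM under the High label (adjusted p of 6.79e-07 in High 1 and 1.35e-05 in High 2). Pappa itself, which frees IGFs from Igfbp4, was at 13.4 and 28.6 CPM in Low, 11.7 CPM in High 1 and 5.09 CPM in High 2, and fell in High 2 against Low (-2.06 ± 0.39, adjusted p = 3.27e-06). Stc1, the other stanniocalcin, went the opposite way to Stc2, at 3.89 and 1.9 CPM in Low and 0.409 and 0.204 CPM under the High label. Its log2 fold change against Low was -2.78 ± 0.91 in High 1 and -3.77 ± 0.97 in High 2, where it had only 7 and 5 fragments. Cathepsin D (Ctsd), a lysosomal protease sorted in part by Igf2r, rose in High 1, from 620 and 541 CPM in Low to 2879.6 CPM (2.31 ± 0.26, adjusted p = 1.27e-16), and was at 939 CPM in High 2. Adam12, which cleaves Igfbp3 and Igfbp5, was at 154 and 205 CPM in Low, 97.4 CPM in High 1 and 175 CPM in High 2. Its log2 fold change against Low was -0.88 ± 0.31 in High 1 and -0.04 ± 0.3 in High 2.

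**Figure D4:**
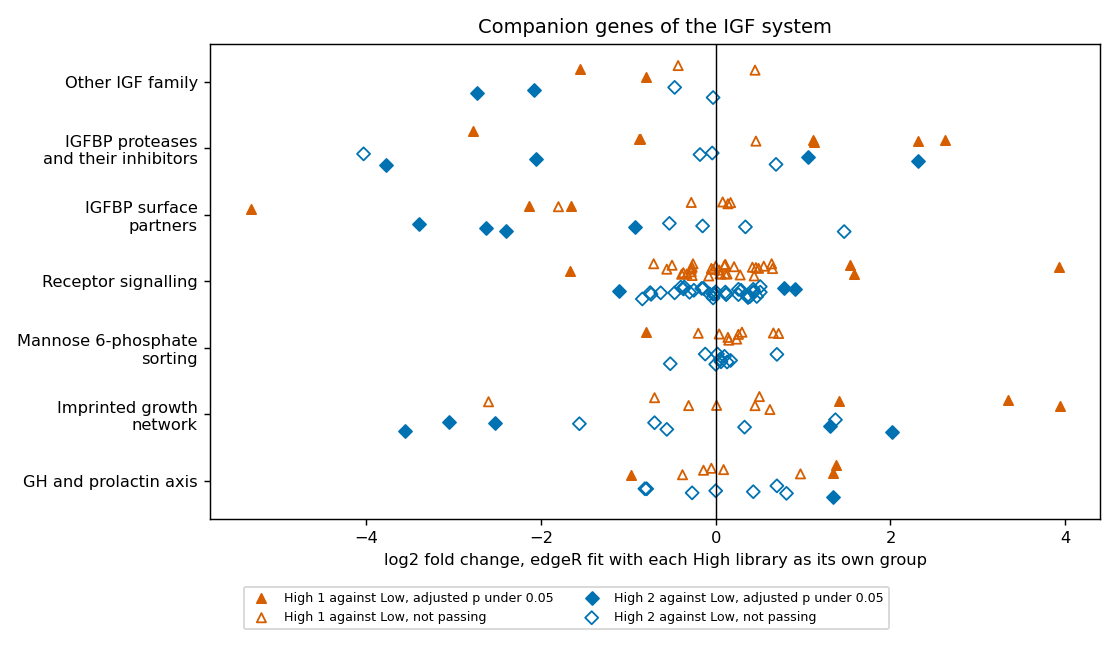
Log2 fold change of the tested genes of the 7 lists, 1 row per list, in High 1 (triangles) and High 2 (diamonds) against the Low libraries, from the edgeR fit with each library labelled High apart; each point is 1 gene, filled where its adjusted p was under 0.05, and points are spread vertically for legibility. The filled points among the 8 surface partners all lie below 0, while most of the 35 receptor signalling genes are open and near 0.

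Of the 35 tested genes of receptor signalling, 0 were called between the groups by edgeR (5 at an unadjusted p under 0.05), 2 by DESeq2 (Irs2 and Grb14) and 0 by limma-voom, and the median was 0.1. Among the most abundant were the phosphatase Ptpn11 (515 and 519 CPM in Low, 558 and 668 CPM under the High label) and the kinase Akt1 (410.4 and 299 against 217 and 491 CPM). In High 1, 3 rose and 1 fell. Grb14, an adaptor that inhibits the insulin receptor, was at 1.76 and 1.61 CPM in Low, 25.6 CPM in High 1 and 2.2 CPM in High 2 (adjusted p in High 1 = 5.35e-20). Pik3r1, the regulatory subunit of PI3 kinase, was at 41.1 and 56.9 CPM in Low, 147 CPM in High 1 and 38 CPM in High 2 (adjusted p in High 1 = 3.2e-07). Grb14 and Pik3r1, like Igf1, were thus high in High 1 and near the Low level in High 2, and for both the difference between the libraries labelled High passed (adjusted p = 1.9e-10 and 6.46e-07). Foxo1, a transcription factor that Akt holds out of the nucleus, also rose in High 1 (1.54 ± 0.31, adjusted p = 9.56e-06). The adaptor Irs2, which links Igf1r to PI3 kinase, fell in High 1 (-1.67 ± 0.37, adjusted p = 0.000109) and in High 2 (-1.11 ± 0.35, adjusted p = 0.014). In High 2, 2 rose (Foxo3 and Hras1) and Irs2 was the 1 that fell.

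Of 10 other members of the family, 4 were tested, and 0 passed between the groups by edgeR (2 at an unadjusted p under 0.05), against 1 (Igf2bp3) by DESeq2 and by limma-voom. The liver binding protein Igfbp1, the insulin genes Ins1 and Ins2 and the receptor Insrr had 0 fragments in every library. The insulin receptor Insr, which can pair with Igf1r, was at 39.4 and 57.3 CPM in Low, 66.4 CPM in High 1 and 47.4 CPM in High 2. The RNA-binding proteins that regulate Igf2 messenger RNA were below both Low libraries in each library labelled High. Igf2bp1 was at 31 and 29.5 CPM in Low, 22.5 CPM in High 1 and 7.12 CPM in High 2, where it fell (-2.08 ± 0.37, adjusted p = 4.79e-07). Igf2bp2 was at 111 and 109 CPM in Low and fell in High 1 to 63.6 CPM (adjusted p = 0.0457), with 79.6 CPM in High 2. Igf2bp3 was at 20.1 and 22.7 CPM in Low, 7.36 CPM in High 1 (adjusted p = 0.000874) and 3.22 CPM in High 2 (adjusted p = 2.37e-09).

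The growth hormone and prolactin list holds receptors, signalling genes and feedback inhibitors. It had 8 tested genes, of which edgeR and limma-voom each called 1 between the groups (Jak2) and DESeq2 called 3 (Ghr, Jak2 and Stat5a). The prolactin receptor Prlr, with 3 and 12 fragments in the Low libraries and 0 in those labelled High, was not tested. In High 1 against Low 2 rose and 1 fell, and in High 2 1 rose. Jak2, the kinase of both hormone receptors, was at 45 and 58.4 CPM in Low and 132 CPM in each library labelled High (log2 fold change 1.35 ± 0.23 SE, adjusted p = 0.0308). The growth hormone receptor Ghr was at 73.2 and 91 CPM in Low, 42.1 CPM in High 1 and 47.5 CPM in High 2 and did not pass between the groups by edgeR (adjusted p = 0.111), but did by DESeq2 (adjusted p = 0.0194, log2 fold change -0.88). Against Low, its log2 fold change was -0.97 ± 0.3 in High 1 and -0.79 ± 0.3 in High 2, the latter just short of the threshold. Between the libraries labelled High it was 0.18 ± 0.34. Stat5a, the transcription factor that Jak2 activates, was at 10.1 and 10.2 CPM in Low and 17.8 CPM in High 2, and rose in High 1 to 26.5 CPM (adjusted p = 0.000604). The feedback inhibitor Socs3 was at 55.5 and 39.4 CPM in Low, 50.7 CPM in High 1 and 27.1 CPM in High 2.

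In the list of imprinted growth genes, to which Igf2 and Igf2r belong by their mode of expression, 1 of 10 tested genes (Mest) rose between the groups by edgeR and DESeq2, and 0 passed with limma-voom. In High 1 against Low 3 rose and 0 fell, and in High 2 2 rose and 3 fell. Mest, paternally expressed, was at 4.7 and 5.74 CPM in Low, 54 CPM in High 1 and 21.5 CPM in High 2 (2.84 ± 0.49, adjusted p = 0.0401). H19, the noncoding gene that shares a control region with Igf2, was at 59.1 and 52.3 CPM in Low, 855 CPM in High 1 and 138 CPM in High 2. It rose in High 1 (3.94 ± 0.29, adjusted p = 6.83e-39) and in High 2 (1.31 ± 0.28, adjusted p = 6.62e-05), while Igf2 was above the Low pair in High 1 and below it in High 2. Peg10 was at 167 and 221 CPM in Low, 276 CPM in High 1 and 16.4 CPM in High 2, where it fell (-3.56 ± 0.36, adjusted p = 1.97e-20). Of the 10 genes in the mannose 6-phosphate sorting list, 0 passed between the groups by edgeR, DESeq2 or limma-voom (0 at an unadjusted p under 0.05 in each). Gga1 had a log2 fold change of -0.8 ± 0.3 in High 1 against Low. The most abundant were Vps35 (319.8 and 387 CPM in Low, 438 and 368 CPM under the High label), M6pr (198 and 217 against 247 and 211 CPM) and Vps26a (111 and 128 against 132 and 110.3 CPM).

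All 5 calls between the groups ended when either Low library was left out, with adjusted p between 0.318 and 0.738. Then edgeR called 0 genes of the whole table, and 970 without Low 1 and 800 without Low 2 had an unadjusted p under 0.05. Neither limma-voom nor DESeq2 was run with a library left out. With all 4 libraries, the call of Mest was also lost with limma-voom (adjusted p = 0.0988) and with limma on log2(FPKM + 1) (adjusted p = 0.065). The calls in single libraries labelled High rest on 1 clone each.

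Markers of other cell types were followed in the same libraries, since IGF genes are strongly expressed in stroma. The 10 fibroblast and pericyte markers summed to 5679.9 and 5214 CPM in the Low pair, 1211 CPM in High 1 and 170.5 CPM in High 2, and 8 of them were at a mean of 1 CPM or more. Within that list Col1a1 was at 2521 and 2133 CPM in Low and 63.5 and 16.1 CPM under the High label. Pdgfrb, Col3a1, Fap, Postn and Cspg4 were likewise below both Low libraries in each library labelled High. Dcn, at 4.19 and 5.45 CPM in Low, was higher, at 195 CPM in High 1 and 19.6 CPM in High 2. Pdgfra, at 79.3 and 97.3 CPM in Low, was higher in High 1 (234 CPM) and lower in High 2 (26.6 CPM). Thy1 and Rgs5 were at no more than 1.03 CPM in any library. The 6 epithelial markers summed to 2378 and 1641 CPM in Low, 2057 CPM in High 1 and 4730.3 CPM in High 2, and 5 of them were at a mean of 1 CPM or more. They did not move together in High 1. In High 2 each of the 6 was above both Low libraries, with Krt8 at 879 CPM and Krt18 at 576 CPM. Krt14 made up the larger part of the sum in the libraries labelled High, at 973 and 614 CPM in Low, 1271 CPM in High 1 and 2647 CPM in High 2. Krt8 fell in High 1 (647 and 443 CPM in Low, 224 CPM in High 1, adjusted p = 0.000285), as did Krt18 (adjusted p = 0.000369), whereas Cdh1 rose there (130.4 and 146 CPM in Low, 263 CPM in High 1, adjusted p = 0.0106). Endothelial markers summed to 0.292 to 0.732 CPM with Emcn at 0, and adipocyte markers to at most 0.0814 CPM with Plin1 and Lep at 0. The 5 leukocyte markers summed to 9.55 and 9.84 CPM in Low, 22.1 CPM in High 1 and 28.1 CPM in High 2, with Emr1 and Cd3e at 0. Only 1 of them was at a mean of 1 CPM or more, Csf1r, at 8.67 CPM in each Low library, 20.8 CPM in High 1 and 27.4 CPM in High 2. Ptprc, the defining marker, was at no more than 0.293 CPM in any library, and Cd68 was at 0.448 to 1.34 CPM. The part of the fibroblast and epithelial markers in the members' values was not tested. In bulk RNA, fewer cells of a type and less RNA per cell cannot be told apart.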

How the data were processed

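Per the labels' protocols, RNA was measured in 4 libraries, 2 per group, from 500 ng of total RNA each with a directional kit. The submitters' processing notes name cutadapt 1.5, TopHat2 2.0.13 and Cuffdiff 2.2.1 with mm10. What annotation and strand setting the counting had is not given in the sources used here. Each row of the deposited table gives, per the file headers, an estimated count of fragments, the authors' scaled signal and the authors' FPKM per gene and library. Of the estimated counts, 99.18% were whole (tolerance 1e-06), and all were rounded. The scaled signal was only checked.

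Counts were fitted over all genes with edgeR 4.0.16 (limma 3.58.1, R 4.3.3), by its quasi-likelihood test, two-sided, with TMM scaling, a smallest count of 10 in its low-count filter and Benjamini-Hochberg adjustment at 0.05. One fit compared High with Low, and another had 3 groups (Low, High 1 and High 2) with only the Low pair to give the spread. Alternatives were DESeq2 1.42.0, limma-voom, RLE size factors, limma on log2(FPKM + 1) and log2(FPKM + 0.1), no filter, a block on the library number, and leaving out each library. Fits were tested on simulated data. Totals ran from 13889858 to 28110812 fragments, so 3 fragments, the limit that a count of 0 allows, correspond to 0.11 to 0.22 CPM per library. The Low pair was not a repeat of 1 library, with a chi-square per degree of freedom of 32.4. The numbers do not come with any pairing of cultures. Deviations of same-numbered libraries correlated at -0.139 across genes.

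The members and the gene lists were chosen with earlier results of these data known. Named were all members, from each list the genes called in High against Low (up to 5, by size of change) or, with fewer than 3, the 3 most abundant, and Arid1a; 1 gene that the rule names is not reported here. Hras and Adgre1 were matched by RefSeq synonyms (Hras1, Emr1). No count test was run on FPKM, and 11 genes with a failed status, none a member, carried no values that are printed.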

Additional observations from a re-analysis of the deposited data

Results flagged for a closer look

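Peg3, an imprinted gene expressed from the paternal allele, moved in opposite directions in the libraries labelled High when each was set against the Low pair. Its level was 3.16 and 5.52 CPM under the Low label, 11.8 CPM in High 1 and 0.529 CPM in High 2. The difference between the libraries labelled High was itself tested, with a log2 fold change of High 2 over High 1 of -4.46 (edgeR, adjusted p = 9.56e-11, assuming that a lone library varies like the Low pair).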

How the results depend on the processing

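Between the groups, edgeR called 148 genes higher and 173 lower. DESeq2 called 611 and 525, no filter on low counts gave 437 and 377, and leaving out a library gave 0 to 1406 and 0 to 1069. With the replicate block, on numbers that only name the libraries, 223 were higher. With crossed numbers, an alternative chosen after seeing the data, 38 were higher and 56 lower. Genes called higher numbered 1440 in High 1 (DESeq2 898), 1181 in High 2 (DESeq2 769) and 588 in High 2 over High 1 (DESeq2 360). Calls over the 7 lists, 5 between the groups, were 14 with DESeq2, 10 with no filter, 2 with crossed numbers and 0 to 23 with a library left out. The share of calls that were higher was 46.1%, against 53.8% with DESeq2, 37.7% with limma-voom and 37.5% on log2(FPKM + 1). The causes were not tested. With crossed numbers the calls of Itgb3, Mest and Jak2 were lost (adjusted p = 0.0862, 0.0637 and 0.061). The members' order over the 4 libraries was kept in 10 of 10 on total CPM and 8 of 10 on FPKM. With a library left out, 5 of the log2 fold changes given for list genes, none called, changed sign, over ranges of -0.03 to 0.52 for Insr, -0.72 to 0.47 for Akt1, -0.11 to 0.14 for Vps26a, -3.56 to 0.5 for Peg10 and -0.8 to 0.09 for Socs3. Igf2 and Igfbp5 turned to -4.14 and -6.21 without High 1, and were at -1.02 and -0.56 with limma-voom. Depth limits Igfbp6 in all libraries, Igfbp2 in the Low libraries and Igfbp5 and Igf2 in High 2.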

Other observations

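In the fit with each library labelled High apart, 18.2% of all genes tested were called in High 1 and 16.2% in High 2. The genes within 200 kb of the members were also read in that fit. Of 65 such genes other than members, 40 were tested, of which 6 rose and 5 fell in High 1 and 6 rose and 3 fell in High 2. Next to Igfbp3 on chromosome 11, the adenylate cyclase gene Adcy1, 27 kb away, was at 41.7 and 44.3 CPM under the Low label. It fell in High 1 to 5.55 CPM (log2 fold change -2.96, edgeR adjusted p = 2.01e-14) and rose in High 2 to 151 CPM (1.81, adjusted p = 3.21e-09). Igfbp1, 3 kb from Igfbp3, had 0 fragments in all 4 libraries. Around Igf2 on chromosome 7, Lsp1, 155 kb away, was at 66.5 and 57.2 CPM in Low. Lsp1 rose in High 1 to 107 CPM (adjusted p = 0.0336) and fell in High 2 to 23.9 CPM (adjusted p = 0.000153). Tnnt3, at 0.147 and 0.256 CPM in Low, rose in High 1 to 3.56 CPM (adjusted p = 0.000347), and Mrpl23 did not pass in either comparison.

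Around Igfbp2 and Igfbp5, the ribosomal protein gene Rpl37a (313 and 229 CPM in Low, 172 CPM in High 1, 275 CPM in High 2) and Smarcal1 (31.1 and 28.9 CPM in Low, 19.5 and 23.4 CPM under the High label) were not called in either comparison, and Tnp1 had no fragments. Beside Igfbp4, the tensin gene Tns4, 11 kb away, was at 11.8 and 8.63 CPM in Low and rose to 29.7 CPM in High 1 (1.55, adjusted p = 1.88e-05) and 81.8 CPM in High 2 (3.01, adjusted p = 5.01e-20). The chemokine receptor gene Ccr7, 89 kb away, was at 0.147 and 0.22 CPM in Low and rose to 2.16 CPM in High 1 (adjusted p = 7.97e-05) and 6.23 CPM in High 2 (adjusted p = 3.54e-11). Rapgefl1, 187 kb away, rose in High 2 (1.58, adjusted p = 0.000708). Top2a, at 17 kb, was at 909 and 1173 CPM in Low and 859 and 964 CPM under the High label and was not called. Near Igfbp6, Itgb7 rose in High 1 (adjusted p = 1.12e-06) and High 2 (adjusted p = 0.00479), and Espl1 fell in both (adjusted p = 2.79e-05 and 0.0455). Acat2, 173 kb from Igf2r, fell in High 1 (adjusted p = 0.035) and High 2 (adjusted p = 0.0464). These genes were named after their values were seen, and the comparisons of High 1 and High 2 share the Low libraries.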
